A study of Mus musculus with 18 samples.

Results

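The genes described here encode the proteins of the mitochondrial ribosome: 77 genes of the 19938 measured in mouse embryonic fibroblasts. They were chosen by symbol, as every gene named Mrpl or Mrps with a number, measured by a probe set that names 1 gene; where a gene had several probe sets, the one with the highest mean was used. Of the 77, 48 carry an Mrpl name and 29 an Mrps name, and 85 probe sets named 1 of them alone. Many, but not all, proteins with a bacterial counterpart take their number from it, and a name does not always give the subunit. Mrps30 and Mrps18a are built into the large subunit, and Mrps36 is counted as a protein of the 2-oxoglutarate dehydrogenase complex and not of the ribosome. Grouped by where the protein sits, 50 members belong to the large subunit and 26 to the small one. Grouped by origin, 46 were counted as having a bacterial counterpart and 31, Mrps36 among them, as specific to mitochondria. Both groupings came from general knowledge and not from a database. The grouping by origin may misplace some members, such as Mrpl47 and Mrpl55 among the 31.

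The mitochondrial ribosome sits in the matrix and translates the few messages of mitochondrial DNA, all of which encode subunits of the respiratory chain and of ATP synthase. Its RNAs come from mitochondrial DNA, but every one of its proteins is encoded in the nucleus, made in the cytosol and imported. The small subunit reads the message, and the large subunit joins the amino acids and releases the chain through a tunnel close to the inner membrane.

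All samples were wild type fibroblasts grown out of C57BL/6 embryos at embryonic day 13, with head and liver removed, and derived from 2 mice. No untreated or mutant group was measured. All 6 groups were given 100 nM dexamethasone, a synthetic glucocorticoid that sets the clocks of cultured cells to a common phase, for 2 h, and RNA was taken at 22, 26, 30, 34, 40 and 46 h. The labels differ on the serum in the medium. Each time had 3 samples, called biological replicates without a statement on separate cultures, so a p-value speaks only of how far these samples scatter. Each sample was put on 1 Affymetrix whole-transcript array, 18 arrays in all, with median intensities of 196 to 210. The stated purpose of the series is circadian expression.

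Levels are given as log2(intensity + 16) after quantile normalization, and a difference of 1 on this scale is a doubling. Tests are limma's moderated tests, with Benjamini-Hochberg adjustment over all 19938 genes and a threshold of 0.05. The 10 measured fibroblast markers, among them collagens and vimentin, had a summed intensity of 55556 to 59591 on the 22 h arrays and of 66130 to 67367 on the 46 h arrays. Each of 7 marker lists for other cell types summed to 1540 or less on every array, the highest being bone and cartilage markers, which gave 962 to 1028 at the first time and 1335 to 1540 at the last. Summed intensity of 15 cell division genes was 26031 to 30320 on the 22 h arrays and 12676 to 14187 on the 46 h arrays, and all 15 passed the test as lower at 46 h. In a culture measured in bulk, fewer cells of a type and less RNA per cell cannot be told apart.

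Some members share their promoter region with another gene, and the DNA before the start of 6 members that were lower at 46 h than at 22 h is shown first so that it can be read beside the values. It is taken from RefSeq on build GRCm38.p6, runs 5′ to 3′ on the strand of the gene, ends at the base before the start, and stops at the start of a neighbouring gene or after 150 bases. Mrpl46 is added because its whole gap to Mrps11, another member, is 41 bases long. Capitals mark letters that match, on either strand, a motif of a factor known to act at housekeeping promoters: SP1 (GGGCGG), the CCAAT box (CCAAT), ETS factors such as GABP (CCGGAAG), NRF1 (GCATGCGC) or YY1 (AAGATGGCG). The positions, in the order of the sequences, are chr1:160195065-160195214 (plus strand), chr4:49521084-49521175 (minus), chr3:94443186-94443335 (plus), chr10:95501950-95502099 (minus), chr13:99344679-99344785 (plus), chr11:94653744-94653790 (plus) and chr7:78783090-78783130 (minus).
Mrps14: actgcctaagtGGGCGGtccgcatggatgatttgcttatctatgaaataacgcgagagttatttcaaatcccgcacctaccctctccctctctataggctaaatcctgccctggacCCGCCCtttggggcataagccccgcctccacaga
Mrpl50: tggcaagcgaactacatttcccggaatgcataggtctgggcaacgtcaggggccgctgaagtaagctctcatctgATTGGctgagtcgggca
Mrpl9: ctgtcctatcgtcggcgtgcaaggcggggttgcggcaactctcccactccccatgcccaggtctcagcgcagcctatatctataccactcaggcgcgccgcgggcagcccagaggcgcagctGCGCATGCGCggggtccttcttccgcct
Mrpl42: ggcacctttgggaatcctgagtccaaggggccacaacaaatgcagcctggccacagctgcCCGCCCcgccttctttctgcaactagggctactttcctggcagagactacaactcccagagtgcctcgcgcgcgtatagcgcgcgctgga
Mrps27: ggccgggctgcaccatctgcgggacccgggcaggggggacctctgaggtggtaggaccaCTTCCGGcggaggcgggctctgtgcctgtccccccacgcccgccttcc
Mrpl27: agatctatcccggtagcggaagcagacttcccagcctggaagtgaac
Mrpl46: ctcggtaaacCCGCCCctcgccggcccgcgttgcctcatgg

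Between 22 h and 46 h, 9 of the 77 genes fell and 0 rose. Over all genes, 9.73% fell and 11.5% rose at the same threshold, so the share of members that fell (11.7%) is close to the background, while no member was among the genes that rose. At an unadjusted p under 0.05, limma called 25 members lower, or 32.5%, against 14.3% of all genes, and 0 members higher, against 19.2%. The median difference of the members was -0.091 log2, with quartiles of -0.167 and 0.013, against a median of 0.029 for all genes. A difference below 0 was seen in 56 members, or 72.7%, and in 41.8% of all genes. Both other scalings of the arrays gave the same direction: 65 members lay below 0 in the values as deposited and 72 with arrays centred on their medians. The number that fell depended on scaling and on single arrays. It was 21 in the values as deposited (10.9% of all genes) and 33 with centred arrays (16.4% of all genes). In the main scaling it was 5 without the first 22 h array (7.2% of all genes). It was 17 without the second (10.7%) and 4 without the third (6.96%). Without the second or the third 46 h array it was 5 (7.9% and 7.45%).

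All 3 arrays of 46 h lay below all 3 of 22 h in 23 members, or 29.9%, against 15.3% of all genes. The reverse order was found in 4 members (Mrpl28, Mrpl34, Mrps17 and Mrps2), against 21.3% of all genes. The changes were small: the median member moved by 0.166 log2 between its highest and its lowest time, and the median gene by 0.193. A 95% confidence interval reached 0.141 to either side of a member's difference in the median case, and for 74 of 77 members the whole interval lay within 0.5 log2 of 0.

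**Figure D1:**
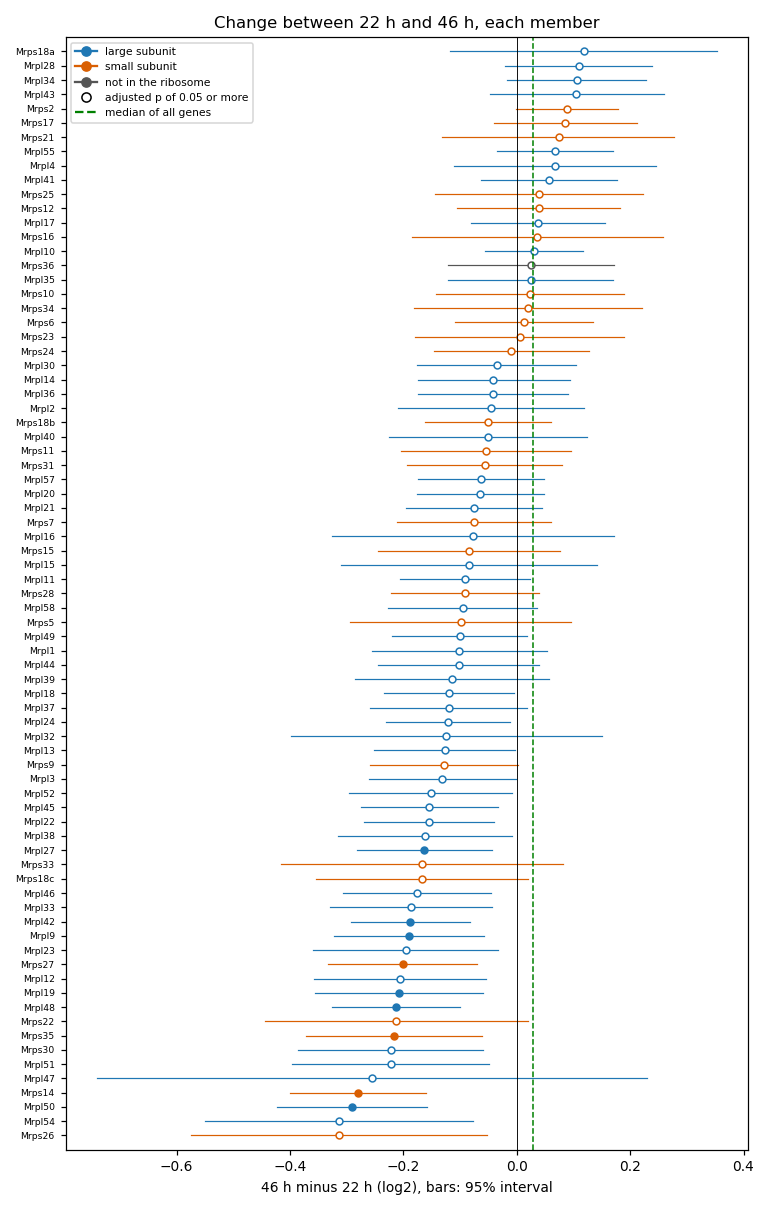
Difference in log2 level between 46 h and 22 h for each of the 77 members, with 95% confidence intervals from limma, coloured by subunit; filled points passed the test at an adjusted p of 0.05. The 9 filled points all lie left of 0, and 56 of 77 points do, while the dashed line, the median of all genes, stands at 0.029.

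When each member was set to its own mean and the median over the members was taken on each array, the 22 h arrays were at 0.026, 0.010 and 0.068 and the 46 h arrays at -0.025, -0.061 and -0.033. These 6 arrays do not overlap between the times. The 4 times between had means of 0.025 (26 h), 0.00068 (30 h), -0.0058 (34 h) and -0.016 (40 h), with SDs of 0.018 to 0.049 (n = 3), and their arrays overlap each other. The widest spread was at 40 h, where the first array stood at -0.072 and the others at 0.0045 and 0.019. Summed intensity of the 15 cell division genes was 19290 to 21471 on the 26 h arrays, 17527 to 18812 on those of 34 h and 14058 to 15778 on those of 40 h, and its part in the order of the members was not tested.

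**Figure D2:**
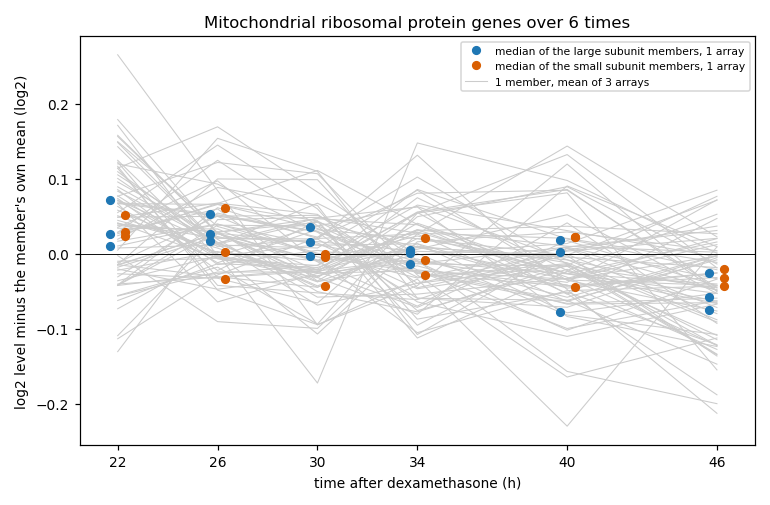
Level of each member minus its own mean over the 18 arrays, in log2, against hours after dexamethasone; grey lines are members (means of 3 arrays), and points are the median over the large subunit members (blue) or the small subunit members (orange) on 1 array. The 3 medians of each subunit lie above 0 at 22 h and below 0 at 46 h.

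A difference between any of the 6 times was called by the F test for 8 members, or 10.4%, against 19.8% of all genes. Members were brighter than most genes, with a median level of 9.51 against 8.07 for all genes. Without genes under a mean of 7, the F test called 31.4% of all genes. The 8 members come from the fit with dim genes kept, so their 10.4% is not to be set against that share. Mrpl48, a large subunit protein specific to mitochondria (probe set 10514298), had the smallest p. Its level was 9.43, 9.48 and 9.48 (22 h), 9.51, 9.54 and 9.47 (26 h), 9.49, 9.57 and 9.58 (30 h), 9.47, 9.42 and 9.54 (34 h), 9.30, 9.44 and 9.41 (40 h) and 9.32, 9.16 and 9.26 (46 h). The 46 h arrays overlap only those of 40 h and lie below all others. Mrpl48 fell by 0.213 ± 0.054 log2 (SE) from 22 h to 46 h (adjusted p = 0.00887, limma) and by 0.228 ± 0.054 from 34 h to 46 h (adjusted p = 0.0233), and its adjusted p over all times was 0.00656. Without the second 46 h array the first of these falls had an adjusted p of 0.0564.

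Mrpl9, a large subunit protein with a bacterial counterpart (probe set 10494060), was lowest at 40 h. Its arrays read 9.27, 9.26 and 9.35 (22 h), 9.31, 9.41 and 9.29 (26 h), 9.26, 9.31 and 9.41 (30 h), 9.10, 9.20 and 9.25 (34 h), 8.99, 9.07 and 9.10 (40 h) and 9.17, 8.98 and 9.16 (46 h). The 40 h arrays lie below every array of the first 4 times. The F test gave an adjusted p of 0.00857 and Mrpl9 fell by 0.19 ± 0.063 from 22 h to 46 h (adjusted p = 0.039, limma); the latter call was lost without the first or the third 22 h array or the second 46 h array.

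Mrps14, a small subunit protein with a bacterial counterpart (probe set 10350985), was high at 22 h and lower at every other time. It read 8.55, 8.44 and 8.46 (22 h), 8.24, 8.38 and 8.31 (26 h), 8.37, 8.31 and 8.37 (30 h), 8.28, 8.20 and 8.23 (34 h), 8.23, 8.37 and 8.27 (40 h) and 8.29, 8.11 and 8.20 (46 h). No array of another time reached the lowest 22 h array. Mrps14 fell by 0.28 ± 0.057 log2 to 46 h (adjusted p = 0.00185, limma) and fell by 0.247 ± 0.057 to 34 h (adjusted p = 0.0107), and the F test gave 0.018. The fall to 46 h passed with any 1 array left out, while the call at 34 h was lost without the first 22 h array and that over all times without the first or the third. Mrps14 is the only small subunit member among the 8.

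Mrpl50, a mitochondria-specific protein of the large subunit (probe set 10512901), was also highest at 22 h. Its levels were 9.95, 9.89 and 9.91 (22 h), 9.80, 9.79 and 9.78 (26 h), 9.84, 9.81 and 9.68 (30 h), 9.65, 9.77 and 9.73 (34 h), 9.68, 9.72 and 9.85 (40 h) and 9.65, 9.73 and 9.51 (46 h). Here too the 22 h arrays lie above all others. Mrpl50 fell by 0.291 ± 0.063 log2 to 46 h (adjusted p = 0.00285, limma), the largest fall among the 9, and by 0.203 ± 0.063 to 34 h (adjusted p = 0.0499), and its adjusted p over all times was 0.0395. With 1 array left out at a time, the fall to 46 h passed in all 18 fits, and the calls to 34 h and over all times were lost in 12 and 10 of them. These 4 genes, Mrpl48, Mrpl9, Mrps14 and Mrpl50, are the ones called both over all times and between 22 h and 46 h.

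In the other 4 genes called over the times, all of the large subunit, the mean was highest at 26 h and lowest at 46 h. Mrpl24 and Mrpl22, which sit around the exit of the peptide tunnel, were at 9.78, 9.68 and 9.78 and at 7.89, 7.88 and 7.78 on the 26 h arrays. On the 46 h arrays Mrpl24 was at 9.51, 9.52 and 9.50 and Mrpl22 at 7.68, 7.54 and 7.57. Neither gene's arrays overlap between these times (adjusted p over all times 0.0175 and 0.0362, limma). Mrpl52 stood at 10.04, 9.96 and 9.95 at 26 h and 9.73, 9.61 and 9.71 at 46 h (adjusted p = 0.0224). Mrpl46, whose gap to Mrps11 is printed above, stood at 8.40, 8.34 and 8.42 at 26 h and 8.14, 8.12 and 8.10 at 46 h (adjusted p = 0.0241). Mrpl52 and Mrpl46 do not overlap between 26 h and 46 h either. From 22 h to 46 h these 4 genes differed by -0.121, -0.155, -0.152 and -0.176, in the order Mrpl24, Mrpl22, Mrpl52 and Mrpl46, and none passed the test (adjusted p of 0.0508 to 0.125). The count of 8 was 5 without the first 22 h array (13.8% of all genes) and 13 without the second (23%). It was 5 without the third (13.2%), 4 without the first 26 h array (18.9%) and 4 without the third 46 h array (14.6%). Mrpl22 lost its call in 9 of the 18 fits without 1 array.

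**Figure D3:**
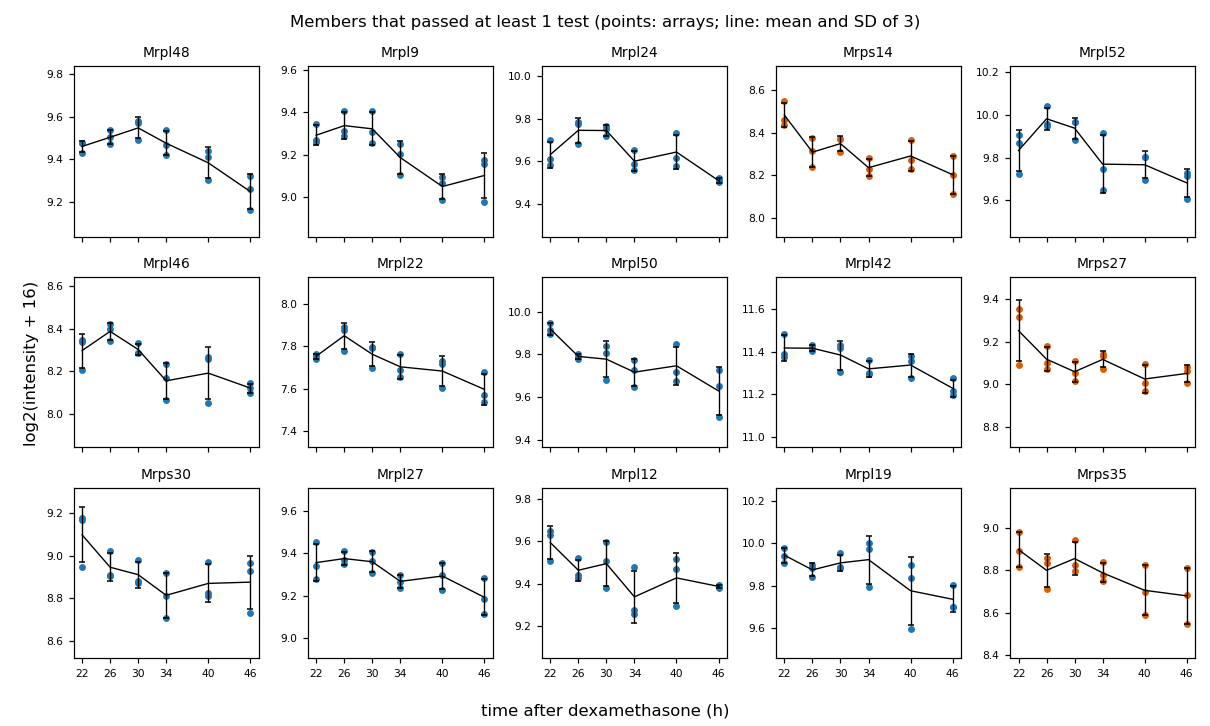
Level in log2(intensity + 16) against hours after dexamethasone for the 15 members that passed at least 1 test (the F test over the times, or 46 h or 34 h against 22 h, or 46 h against 34 h); points are arrays, blue for the large subunit and orange for the small one, and lines join the means with SDs (n = 3). Each panel spans the same log2 range around its own gene, and in the panels of Mrps14 and Mrpl50 all 3 points of 22 h lie above all others.

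Of the other 5 members that fell by 46 h, 4 had no overlap between the 2 times. Mrpl42, specific to mitochondria, read 11.49, 11.38 and 11.39 at 22 h and 11.28, 11.22 and 11.20 at 46 h, and fell by 0.188 ± 0.05 (adjusted p = 0.0117, limma). Mrps27, a small subunit protein of the pentatricopeptide repeat family, read 9.35, 9.09 and 9.31 and then 9.08, 9.01 and 9.06, and fell by 0.201 ± 0.063 (adjusted p = 0.029). In Mrps27 the second 22 h array lies close to the 46 h arrays. Mrps35, also of the small subunit, read 8.98, 8.82 and 8.89 and then 8.81, 8.55 and 8.68, and fell by 0.216 ± 0.074 (adjusted p = 0.0453, limma). Its second 22 h array and first 46 h array almost touch, at 8.816 and 8.81. Mrpl19, with a bacterial counterpart, read 9.98, 9.91 and 9.94 and then 9.70, 9.81 and 9.70, and fell by 0.207 ± 0.07 (adjusted p = 0.0446). At 34 h and 40 h Mrpl19 had means of 9.92 ± 0.11 and 9.78 ± 0.16 (SD, n = 3). Mrpl27, whose bacterial counterpart reaches toward the peptidyl transferase centre, read 9.28, 9.45 and 9.34 and then 9.28, 9.19 and 9.11. Its times overlap, and Mrpl27 fell by 0.163 ± 0.057 (adjusted p = 0.0489, limma). The calls for Mrpl27, Mrps35 and Mrpl19 were lost in 17, 14 and 13 of the 28 other settings and left-out arrays tried. The call of Mrpl42 was lost without the first 22 h or the third 46 h array, and that of Mrps27 without the first or the third 22 h or the second or the third 46 h array.

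Between 22 h and 34 h, 4 members fell and 0 rose, while 4.1% of all genes fell and 5.34% rose. At an unadjusted p under 0.05, limma called 10 members lower, or 13%, against 8.94% of all genes, and 5 members higher, against 16.4%. The 4 were Mrps14 and Mrpl50, described above, with Mrps30 and Mrpl12. Mrps30, a large subunit protein despite its name, read 9.17, 8.95 and 9.18 at 22 h and 8.92, 8.71 and 8.81 at 34 h. The times do not overlap, although the second 22 h array is close to the first 34 h array, and the difference was -0.285 ± 0.078 (adjusted p = 0.0285, limma). Mrpl12, a protein of the stalk that recruits translation factors and one that also binds the mitochondrial RNA polymerase, read 9.65, 9.51 and 9.63 at 22 h and 9.28, 9.26 and 9.48 at 34 h, a difference of -0.255 ± 0.072 (adjusted p = 0.0342). Its times do not overlap. Both were also lower at 46 h than at 22 h without passing the test (-0.222, adjusted p = 0.0502, and -0.206, adjusted p = 0.0511). The median member differed by -0.05 and the median gene by 0.036. The count of 4 was 0, 9 or 1 without the first, second or the third 22 h array, and 1 or 2 without the second or the third 34 h array. Mrps30 and Mrpl12 were each lost without the first or the third 22 h array or the second 34 h array, Mrps30 also without the third 34 h array and Mrpl12 without the first.

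From 34 h to 46 h, 1 member fell (Mrpl48, above) and 0 rose, against 2.51% and 1.06% of all genes. At an unadjusted p under 0.05, limma called 7 members lower, against 9.94% of all genes, and 0 higher, against 5.65%. Leaving out the first or the third 34 h array or the second or the third 46 h array ended the call of Mrpl48 in this comparison. The median member differed by -0.034 and the median gene by -0.0062. The 3 comparisons share arrays pairwise, so they are not independent of each other.

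No member passed the test for a 24 h cosine, which 0.828% of all genes passed (limma). At an unadjusted p under 0.05 the cosine called 10 members, or 13%, against 21.3% of all genes. The lowest adjusted p was that of Mrpl9, 0.0695, with an amplitude of 0.15 log2 and a fitted peak at 27.9 h. Amplitude here is the distance from mean to peak. The largest amplitude of any member was 0.157, and the median was 0.052 for the members and 0.064 for all genes. The highest mean was at 22 h in 31 members, or 40.3%, and in 19.5% of all genes. The lowest mean was at 46 h in 30 members, or 39%, and in 18.9% of all genes. The times cover 1 cycle, so no repeat of a rhythm could be seen.

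The subunits and the origins of the proteins were compared by description only. Of the 50 large subunit members 6 fell by 46 h, or 12%, with a median difference of -0.108, and of the 26 small subunit members 3 fell, or 11.5%, with a median of -0.055; both shares are near the 9.73% of all genes. Of the 46 members counted as having a bacterial counterpart 4 fell, or 8.7% (median -0.076). Of the 31 counted as mitochondria-specific 5 fell, or 16.1% (median -0.152), and this split may misplace some members. The second 22 h array stood apart in the mitochondria-specific members: their array medians were 0.106, -0.014 and 0.098 at 22 h and -0.0095, -0.078 and -0.026 at 46 h, so the second overlaps the 46 h arrays. The same order held inside each subunit: -0.085 for the 29 bacterial-type and -0.152 for the 21 specific proteins of the large subunit, and -0.051 for 17 and -0.167 for 9 in the small subunit. It also held in both other scalings and with any 1 array of 22 h or 46 h left out, but without the second 46 h array the 9 stood at -0.05 and the 17 at -0.048. In the 9, the 22 h array medians were 0.153, -0.056 and 0.135. The 5 members listed at the tunnel exit had a median of -0.154 and the 4 listed in the stalks one of -0.096. In both groups no member passed the test between 22 h and 46 h. The paralogs Mrps18a, Mrps18b and Mrps18c, which share 1 bacterial ancestor and occupy different places in the ribosome, differed by 0.118 ± 0.112, -0.051 ± 0.053 and -0.167 ± 0.089, and none passed the test (adjusted p of 0.499, 0.546 and 0.2, limma).

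The largest differences among members that did not pass were those of Mrps26 (-0.314 ± 0.124, adjusted p = 0.0824, limma) and Mrpl54 (-0.313 ± 0.112, adjusted p = 0.0559), larger than any that passed but with wider errors. Probe sets of 1 gene disagreed in Mrpl47: the one used differed by -0.256 ± 0.23 (adjusted p = 0.476) and the dimmer one by 0.384 ± 0.104 (adjusted p = 0.0133, in a fit over all single-symbol probe sets). Of the 8 members with several probe sets, Mrpl47 is the only one with a probe set called higher. Mrpl27 differed by -0.163 in the probe set used and by -0.26 ± 0.075 in the other (adjusted p = 0.0202), and Mrpl51 differed by -0.222 in the one used (adjusted p = 0.0644) and by -0.186 in the other (adjusted p = 0.0499).

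Other genes of the same pathway were described by the same counts and medians between 22 h and 46 h, to be read against the 9.73% of all genes that fell. Of the 5 measured genes in a list of proteins of this ribosome known by names of other kinds, which includes Mrpl58, itself a member, 2 fell: Ptcd3 by 0.244 ± 0.075 (adjusted p = 0.0279, limma) and Chchd1 by 0.175 ± 0.051 (adjusted p = 0.0212), both of the small subunit. Of 27 measured genes for assembly of the ribosome and modification of its RNA 7 fell, or 25.9%, and 0 rose (median -0.092). Noa1, a GTPase needed for the small subunit, fell by 0.327 ± 0.058 (adjusted p = 0.00056), C1qbp, a matrix protein that binds RNA, by 0.29 ± 0.051 (adjusted p = 0.000477) and Gtpbp10, a GTPase of large subunit assembly, by 0.368 ± 0.091 (adjusted p = 0.00792). Mterf4, which guides an RNA methyltransferase to the large subunit, passed the F test and differed by -0.112 from 22 h to 46 h (adjusted p = 0.267).

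Of 15 translation factors of mitochondria 2 fell, or 13.3%, and 0 rose (median -0.133): Mrrf, the recycling factor, by 0.164 (adjusted p = 0.0268, limma) and Tufm, the elongation factor that carries aminoacyl-tRNA, by 0.183 (adjusted p = 0.0299). Of 19 genes for charging mitochondrial tRNAs 7 fell, or 36.8%, and 0 rose (median -0.103). Sars2, for serine, fell by 0.334 ± 0.055 (adjusted p = 0.000265), and Pars2, Tars2 and Rars2, for proline, threonine and arginine, by 0.26, 0.232 and 0.189. Of 10 genes for upkeep and transcription of mitochondrial DNA 4 fell, or 40%, and 0 rose (median -0.099), among them Tfam, which packs the DNA and starts transcription (-0.327 ± 0.072, adjusted p = 0.00339), and Twnk, its helicase (-0.18 ± 0.05, adjusted p = 0.0156). Of 28 genes of protein import 8 fell, or 28.6%, and 0 rose (median -0.093), among them Timm8a1 (-0.687 ± 0.09), Hspd1, the matrix chaperonin (-0.413 ± 0.112), Tomm22 (-0.271) and Timm17b (-0.194). Of 15 listed symbols of genes encoded in mitochondrial DNA, 0 were found among the genes measured by a probe set with 1 symbol.

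Among 10 regulators of mitochondrial biogenesis 4 fell and 1 rose. Myc, a growth factor-induced transcription factor that acts on ribosome and mitochondrial genes, fell by 0.878 ± 0.091. Nrf1, nuclear respiratory factor, fell by 0.317 ± 0.063 (adjusted p = 0.00144, limma), Gabpa, the ETS subunit of GABP, by 0.281 ± 0.071 (adjusted p = 0.00874) and Hcfc1, a cofactor, by 0.218 ± 0.066 (adjusted p = 0.025). Ppargc1b, a coactivator of respiratory genes, rose by 0.216 ± 0.05 (adjusted p = 0.00516). Yy1 differed by -0.017 ± 0.041 (adjusted p = 0.819).

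The other ribosome of the cell offers a comparison. Of 55 measured cytosolic ribosomal protein genes 5 fell, or 9.09%, near the share of all genes, and 0 rose, with a median of -0.055. Rpsa fell by 0.433 ± 0.064 (adjusted p = 0.000102, limma) and Rpl12 by 0.287 ± 0.088 (adjusted p = 0.0262). Rpl36a, which passed the F test, differed by -0.017 (adjusted p = 0.864), and its sign turned without the second 22 h array and without the third 46 h array. Of 32 genes of nucleolar ribosome biogenesis, which make the RNA and the particles of that ribosome, 22 fell, or 68.8%, and 0 rose (median -0.234), among them Wdr12 by 0.468 ± 0.071, Utp20 by 0.391 ± 0.059, Nhp2 by 0.391 ± 0.067 and Nop56 by 0.359 ± 0.058. The 15 cell division genes had a median of -1.19. Each list from the ribosome's own proteins to the nucleolar genes kept a median below 0 in both other scalings. No test compared the lists with each other.

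**Figure D4:**
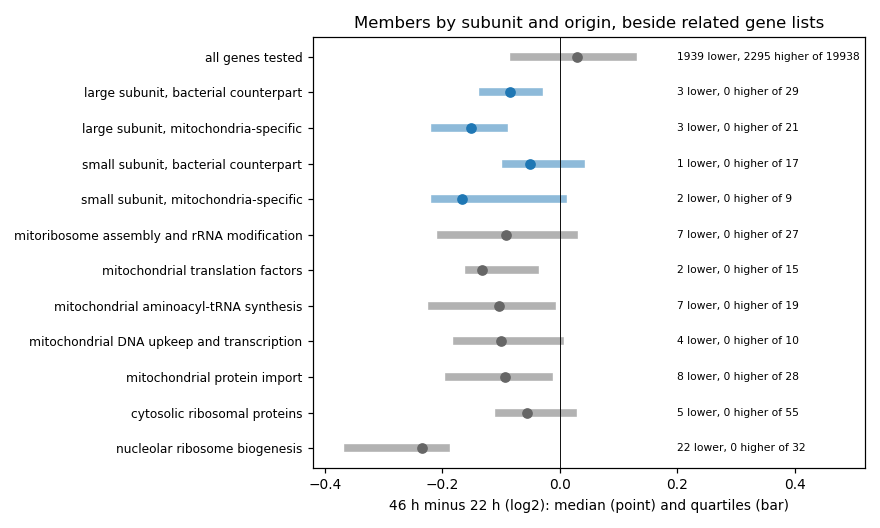
Median (point) and quartiles (bar) of the log2 difference between 46 h and 22 h for all genes tested, for the members by subunit and origin (blue) and for related gene lists (grey), with the number called lower and higher at an adjusted p of 0.05. All 4 member groups have medians below 0, between -0.051 and -0.167, and the nucleolar list lies furthest left at -0.234.

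RefSeq promoter windows, 250 bases before to 50 after a start, were at hand for 68 of the 77 members, in 74 windows, and for 19115 windows of all genes tested. The ETS motif CCGGAAG, on either strand, was in 33.8% of member windows and 12.1% of all. NRF1's GCATGCGC was in 10.8% and 3.79%, and YY1's AAGATGGCG in 10.8% and 1.94%. Shares were closer for GGGCGG (52.7% and 49.3%) and CCAAT (39.2% and 37.4%). For motifs of clock factors they were 9.46% and 8.26% for the E-box CACGTG, 1.35% and 4.96% for the D-box TTANNTAA, and 13.5% and 14.2% for AGGTCA, read by ROR and REV-ERB receptors. None of these words contains another. In the sequences printed above, NRF1's word appears before Mrpl9, the ETS word before Mrps27, the SP1 word before Mrps14, Mrpl42 and Mrpl46, and the CCAAT box before Mrpl50.

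The ETS word was held by 25 members and the NRF1 and YY1 words by 8 each. Between members with and without a word, the medians did not have the same order for all 3. The median difference from 22 h to 46 h was -0.119 in members with the ETS word and -0.077 in the others, -0.119 and -0.08 for the NRF1 word, and -0.048 and -0.093 for the YY1 word. Of the 7 members that fell and have a window, 3 hold the ETS word, 1 the NRF1 word and 2 the YY1 word. These are descriptions of letters, with no test.

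A start back to back with another measured gene was found for 22 of 68 members, or 32.4%, and for 8.66% of all 15562 genes with a window. The other gene had to start on the opposite strand, within 500 bases before the gene's own start or up to 50 bases after it. Mrpl46 and Mrps11, a large and a small subunit gene, start back to back across the 41 bases printed above, and differed by -0.176 ± 0.062 and -0.054 ± 0.071 from 22 h to 46 h. Mrps12 (0.039 ± 0.069) lies back to back with Sars2, which fell, and Mrpl43 (0.105 ± 0.073) with Twnk, which fell. Mrpl18 (-0.119 ± 0.055) starts beside Tcp1, a subunit of the cytosolic chaperonin, which fell by 0.267 ± 0.05 (adjusted p = 0.000963, limma). Mrpl27 starts beside Eme1, a DNA repair nuclease subunit, which fell by 1.1 ± 0.105, and Mrpl57 (-0.063 ± 0.053) beside Ska3, a protein of the kinetochore, which fell by 1.48 ± 0.135. Mrpl50, which had the largest fall among members that passed the test, starts beside Zfp189, which differed by 0.093 ± 0.09 (adjusted p = 0.509). Of the 20 partners that are not members 5 fell and 0 rose, with a median of -0.064. Over all genes 9.73% fell and 11.5% rose, with a median of 0.029. Eme1 and Ska3 are among the 5.

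**Figure D5:**
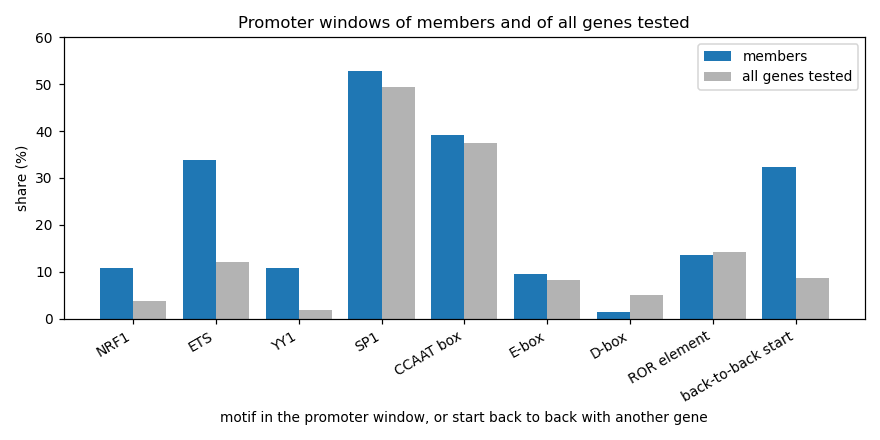
Share in percent of promoter windows that hold each motif on either strand, and of genes with a back-to-back start. Members are in blue and all genes tested in grey. Back to back means that another measured gene starts on the opposite strand, within 500 bases before the start or up to 50 after it. The bars differ most for the ETS motif, at 33.8% and 12.1%, and for back-to-back starts, at 32.4% and 8.66%.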

How the data were processed

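Total RNA from 18 samples was labelled with a whole-transcript kit and hybridised to Affymetrix arrays, per the labels' protocols. Each probe set has 1 intensity per array in the authors' table, linear and not in log. The submitters' processing notes name Affymetrix Expression Console 1.1 and PLIER 2.0, without settings. Unused columns numbered 0.

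Of 35556 probe sets, 21789 had 1 gene symbol in the platform annotation, giving 19938 genes (highest mean probe set). All 77 members matched RefSeq by gene identifier and 0 symbols changed. The 1 probe set that pairs a member with another symbol was left out. Array quartiles differed by up to 0.154 log2, so log2(intensity + 16) was quantile normalized. Adding a constant shrinks the differences of dim genes, and precision is bounded by how many arrays there are. Means of 6 times were fitted to all 18 arrays with limma 3.58.1 in R 4.3.3 (lmFit, eBayes), giving an F test and 3 contrasts; a separate fit had a 24 h cosine and sine. The fits were tested on simulated data. P-values were adjusted by Benjamini-Hochberg over all genes at 0.05.

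The members and lists were chosen with earlier results of these data known. Named with values were members called over the times, the 6 largest called falls, called members of the other contrasts, the Mrps18 paralogs, and up to 4 genes of a list with the smallest p among those called by the F test. Mrpl42, Mrpl27, Mrps26, Mrpl54, Mrpl47, Mrpl51, Ptcd3, Chchd1, Tufm, Ppargc1b, Yy1 and the back-to-back genes were named after their values were seen. Alternatives covered scaling, the constant, dim genes, averaged probe sets, a replicate block, weights for arrays, a trended robust variance, threshold, a linear term and each array left out.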

Additional observations from a re-analysis of the deposited data

How the results depend on the processing

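Of the 9 falls by 46 h, all kept their direction in every setting and with each array left out. Members called over the 6 times (8) numbered 15 in the values as deposited (33.1% of all genes) and 28 with centred arrays (30.8%). They numbered 45 with array weights (54% of all genes) and 2 at an adjusted p of 0.01 (9.25%). The number lower at 46 h than at 22 h (9) was 21 as deposited (10.9% of all genes) and 33 centred (16.4%). It was 15 with a constant of 64 (10.3%), 17 without genes under a mean of 7 (14.9%) and 33 with array weights (19.2%). A trended robust variance gave 14 (10.2%) and a threshold of 0.01 gave 3 (6.27%). Members higher at 46 h numbered 2 with array weights (24.9% of all genes) and 0 in each other setting. Over all genes, 11.5% were higher and 9.73% lower at 46 h, 19.4% and 10.9% as deposited, and 9.27% and 16.4% centred. From 22 h to 34 h, the number higher (0) was 1 with a constant of 64, 1 without dim genes, 7 with array weights and 1 with a trended robust variance, and the number lower (4) was 21 with array weights and 0 at 0.01. From 34 h to 46 h, the number lower (1) was 6 centred, 2 without dim genes, 4 with array weights and 0 at 0.01. Shares of all genes were not counted in these settings from 22 h to 34 h or from 34 h to 46 h. These member counts therefore cannot be set against a background. Array weights raised the share of all genes called over the 6 times from 19.8% to 54%. The cosine called 1 member as deposited, or 1.3%, against 2.71% of all genes. It called 1 member centred, 1 without dim genes and 2 with array weights, and the shares of all genes there were not counted. Member medians moved to -0.187 (46 h against 22 h), -0.087 (34 h against 22 h) and -0.097 (46 h against 34 h) with centred arrays, and to -0.086 for 34 h against 22 h as deposited; against the median of all genes, the members stood at -0.121 in the main scaling and at -0.181 in both others for 46 h against 22 h. The causes were not tested. With 1 array left out at a time, the counts ran from 4 to 13 over all times, 4 to 17 lower at 46 h than at 22 h, 0 to 3 higher and 0 to 9 lower at 34 h, 0 to 2 lower from 34 h to 46 h, and 0 to 1 for the cosine. Over all genes, 13.2% to 23.5% were then called over all times, and 6.96% to 10.7% lower at 46 h than at 22 h. Shares of all genes for the other comparisons and the cosine were not counted in those fits. Rpl36a ran from -0.031 to 0.0054 with 1 array left out, above 0 without the second 22 h array (0.0054) and without the third 46 h array (0.0013). Replicate numbers did not pair the arrays: over 45 pairs of the same number, deviations correlated at -0.559 to 0.495 with a median of -0.098, and 3 of 18 arrays were closest to their own number. With the replicate number as a block, 9 members were lower at 46 h, 7 of them shared with the fit without it. A single shared pattern held 33.8% of the variance of all genes about the means of their times. Different genes therefore did not scatter independently. Of the named genes that are no members, the calls between 22 h and 46 h of Chchd1, Hcfc1, Hspd1, Mrrf, Ptcd3, Rars2, Rpl12, Tars2, Timm17b, Tufm and Twnk were lost without at least 1 array. Calls over the times were lost likewise in Mrpl24, Mrpl46 and Mrpl52.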
